A study of Mus musculus with 16 samples.

Results

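Beta-catenin (CTNNB1), the adenomatous polyposis coli protein (APC) and glycogen synthase kinase 3 beta (GSK3B) were followed in mouse liver tumors and control liver with the 6 antibodies whose name begins with one of these 3 symbols, out of 158 antibodies on a reverse-phase protein array. The 6 antibodies read total CTNNB1, 2 of its phosphorylation states (CTNNB1_P-T41/S45 and CTNNB1_P-S675), total GSK3B, the phosphorylated serine GSK3B_P-S9, and total APC. A reverse-phase array spots tissue lysates on a chip and reads each antibody as fluorescence. The 3 phospho-site antibodies were also set against the total antibody to the same protein, which gives 3 of the 45 site-to-total pairs of the array. No APC phospho-site was on the array.

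Beta-catenin links cadherins to the cytoskeleton and, once stabilised, enters the nucleus and drives Wnt target genes with TCF factors. Without a Wnt signal it is held in a destruction complex built on AXIN and APC, in which casein kinase 1 phosphorylates S45 and GSK3 then phosphorylates T41 and residues before it, which marks the protein for ubiquitination and degradation. Activating Ctnnb1 mutations in liver tumors remove or replace residues of this region, and in normal liver beta-catenin activity is high in the hepatocytes around the central vein. GSK3B is inhibited when S9 is phosphorylated by Akt, ribosomal S6 kinases and other kinases, whereas S675 of beta-catenin is a site of protein kinase A and PAK kinases outside the degradation region.

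The 16 samples were liver tissue of male C3H/HeJ mice in 4 groups, namely 7 tumors with mutated Ctnnb1 and 3 control livers of mice given phenobarbital (PB), and 3 tumors with mutated Ha-ras and 3 control livers of mice without PB. PB is a barbiturate that induces drug-metabolising enzymes and promotes liver tumors in mice. Per the design text the mice received 1 injection of the carcinogen diethylnitrosamine, 10 or 90 µg per g at an age of 2 or 6 weeks, and later a diet with 0.05% PB or none. Which mice had which dose and age was not used here. The labels disagree on the treatment, with 28 to 36 weeks of PB in the diet in the design text, 27 weeks for every sample in its characteristics and 28 days of PB in water in the protocols. Genotype and PB go together in the tumors, so a difference between the tumor genotypes cannot be told apart from one between the PB arms. The labels name neither the mutated residue nor the animal behind a sample, so the p-values cover only how far these samples differ from each other, part of which may be technical. In bulk tissue, fewer cells of a type and less protein per cell cannot be told apart.

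All values below except the multiples of a blank are scaled signals, that is a deposited fluorescence divided by the median fluorescence of its sample, so that 1 is the typical antibody. A level can be compared between samples for the same antibody, not between antibodies. The median deposited signal per sample ran from 0.466 to 0.791 relative fluorescence units, and precision is limited by the few samples of a group. Of the 5 hepatocyte marker proteins listed, 3 had antibodies (HNF4A, GLUL and CYP2E1), and HNF4A, a transcription factor of hepatocytes, read between 9.26 and 21.9 times its blank in the 16 samples. Ctnnb1 tumors had less HNF4A than Ha-ras tumors did (log2 difference -0.49 ± 0.11, adjusted p = 0.00442). In that comparison the other 3 hepatocyte antibodies went the other way and passed as higher in Ctnnb1 tumors. Of the other 3 hepatocyte antibodies, CYP2E1_1 and CYP2E1_2 fell in Ha-ras tumors against control livers without PB and GLUL did not pass (-3.57 ± 1.45, adjusted p = 0.143). None of 14 markers of stellate, endothelial, immune or bile duct cells had an antibody, so the part of other cells was not tested.

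Of the 7 Ctnnb1 tumors, 2 lacked the raised glutamine synthetase of the other 5. Glutamine synthetase (GLUL), the pericentral enzyme used to recognise Ctnnb1-mutated liver tumors, had scaled signals of 91.6, 69.3, 72.0, 58.1 and 57.9 in Ctnnb1 tumors 1 to 5, above the 34.5, 49.7 and 3.69 of the PB control livers. In tumor 7 it was 15.3, within the range of those controls, and in tumor 6 the deposited signal was below 0 and has no logarithm. The cytochrome P450 CYP2E1 (antibody CYP2E1_2) was also lowest in these tumors, at 10.1 in tumor 6 and 15.2 in tumor 7, against 38.5 to 42.6 in the PB control livers. CYP1A2_1, a further P450 that beta-catenin controls, was 1.92 in tumor 6 but 22.9 in tumor 7, against 13.5 to 17.0 in the PB control livers. Phosphorylated ERK1 (MAPK3_P-T202/Y204, looked at after its values were seen) was 2.84 and 3.03 in tumors 6 and 7, against 7.22 to 17.7 in the Ha-ras tumors. All 7 Ctnnb1 tumors lay below the 3 Ha-ras tumors in this signal. Their mean was 0.997 times that of the 3 PB control livers, with 2 tumors above all of these controls and 1 below them. Some results that rest on the Ctnnb1 tumors, mainly those for CTNNB1 and GSK3B_P-S9, are therefore also given without tumors 6 and 7. This exclusion was chosen after the values were seen.

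Each antibody was first set against the blank, a spot read with secondary antibody only. Total CTNNB1 stood 10.1 to 76.5 times above its blank and total GSK3B 4.86 to 11.7 times. CTNNB1_P-S675 read 1.81 to 3.43 times its blank, with 1 of 16 samples under 2 times, a control liver without PB. CTNNB1_P-T41/S45 read 1.53 to 4.15 times, with 1 PB control liver and 1 control liver without PB under 2 times. These sites were thus measured close to background. GSK3B_P-S9 spanned 1.47 to 7.62 times, and the 5 samples under 2 times were 2 Ctnnb1 tumors, 2 PB control livers and 1 control liver without PB, with no Ha-ras tumor among them. APC read 0.752 to 1.74 times its blank and stayed under 2 times in all 16 samples, so no fold is given for it. Where the blank makes up much of a signal, a fold from the deposited signal understates the change, so values after subtracting the blank are also given for the sites.

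**Figure D1:**
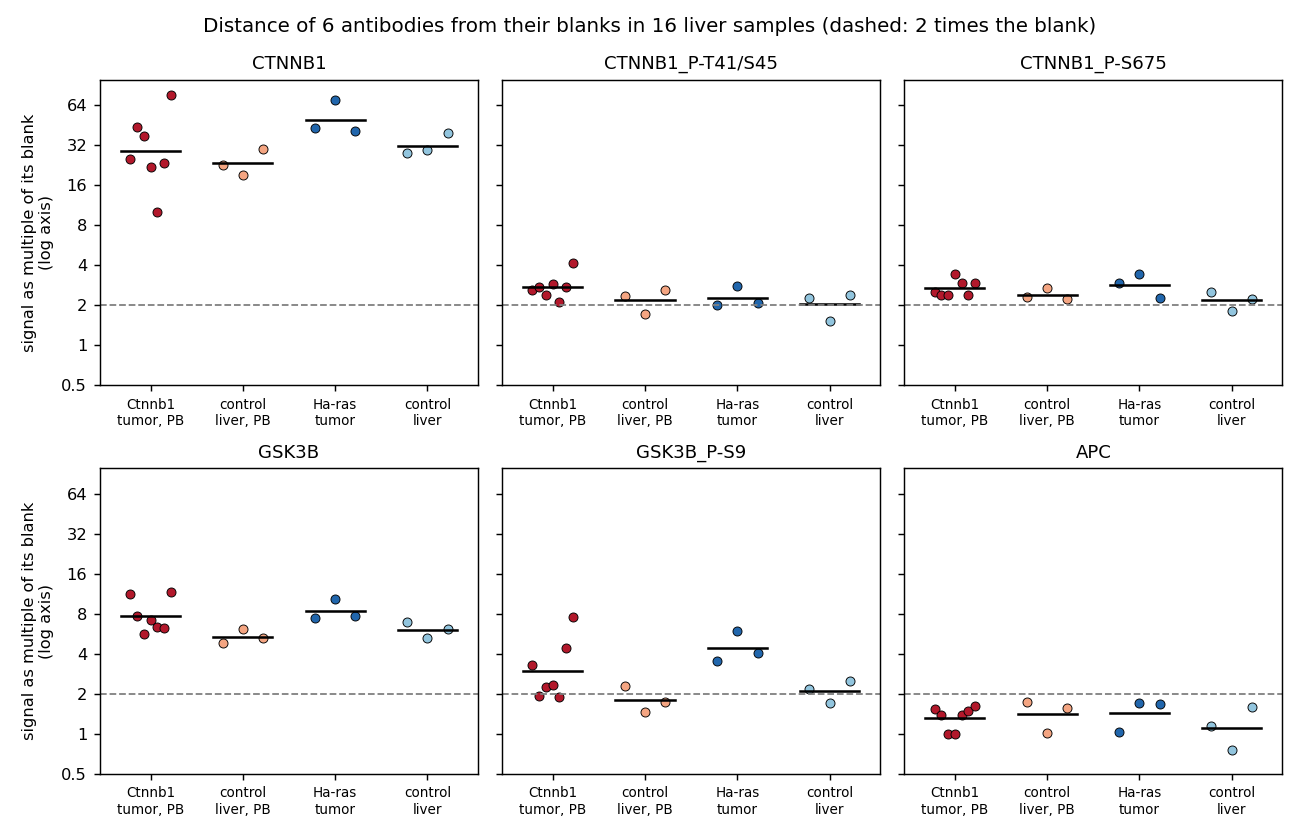
Signal of the 6 antibodies as a multiple of the blank (log axis) in every sample, by group, with a bar at the geometric mean and a dashed line at 2 times the blank. CTNNB1 lies between 10.1 and 76.5 times its blank, while the 16 APC points, from 0.752 to 1.74, stay below the dashed line.

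Total beta-catenin had scaled signals from 1.65 to 7.94 with a median of 3.44 in the 7 Ctnnb1 tumors, against 3.78, 3.76 and 5.05 in the PB control livers. None of the tumors lay within the range of those controls, since 3 were above it and 4 below it, so the groups were not separated, as they were for 8.97% of antibodies. The mean was 4.41 ± 2.23 (SD, n = 7) in Ctnnb1 tumors and 4.20 ± 0.74 (SD, n = 3) in PB control livers. The log2 difference was -0.09 ± 0.36 (SE, 95% interval -0.86 to 0.68, limma adjusted p = 0.892), and the interval spans 0.553-fold to 1.60-fold, so no change in mean total beta-catenin was detectable at this precision. Without tumors 6 and 7 it was -0.24 ± 0.34 (adjusted p = 0.676).

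In the Ha-ras tumors total beta-catenin was 7.92, 6.68 and 7.98, against 4.17, 4.15 and 4.77 in the control livers without PB. All 3 tumors lay above all 3 controls, as for 17.2% of antibodies. The log2 difference of 0.78 ± 0.43 (1.72-fold, 95% interval 0.918-fold to 3.23-fold) missed the threshold (adjusted p = 0.321) in the model that shares 1 spread over the 4 groups, which includes the wide Ctnnb1 tumors. In a model of these 2 groups alone the same difference passed (adjusted p = 0.0103). Ctnnb1 tumors against Ha-ras tumors gave -0.94 ± 0.36 (1.92-fold lower, adjusted p = 0.0804), with 6 of 7 Ctnnb1 tumors below all 3 Ha-ras tumors. Without tumors 6 and 7 the difference was -1.09 ± 0.34 (adjusted p = 0.0377). Tumor 7 had the highest CTNNB1 of the 7, so leaving it out had to widen this difference (-1.11, adjusted p = 0.0248, without tumor 7 alone). By mean the order from the highest was Ha-ras tumors, Ctnnb1 tumors, control livers without PB and PB control livers. The last 3 groups overlapped, and Ctnnb1 tumor 7 lay within the range of the Ha-ras tumors.

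**Figure D2:**
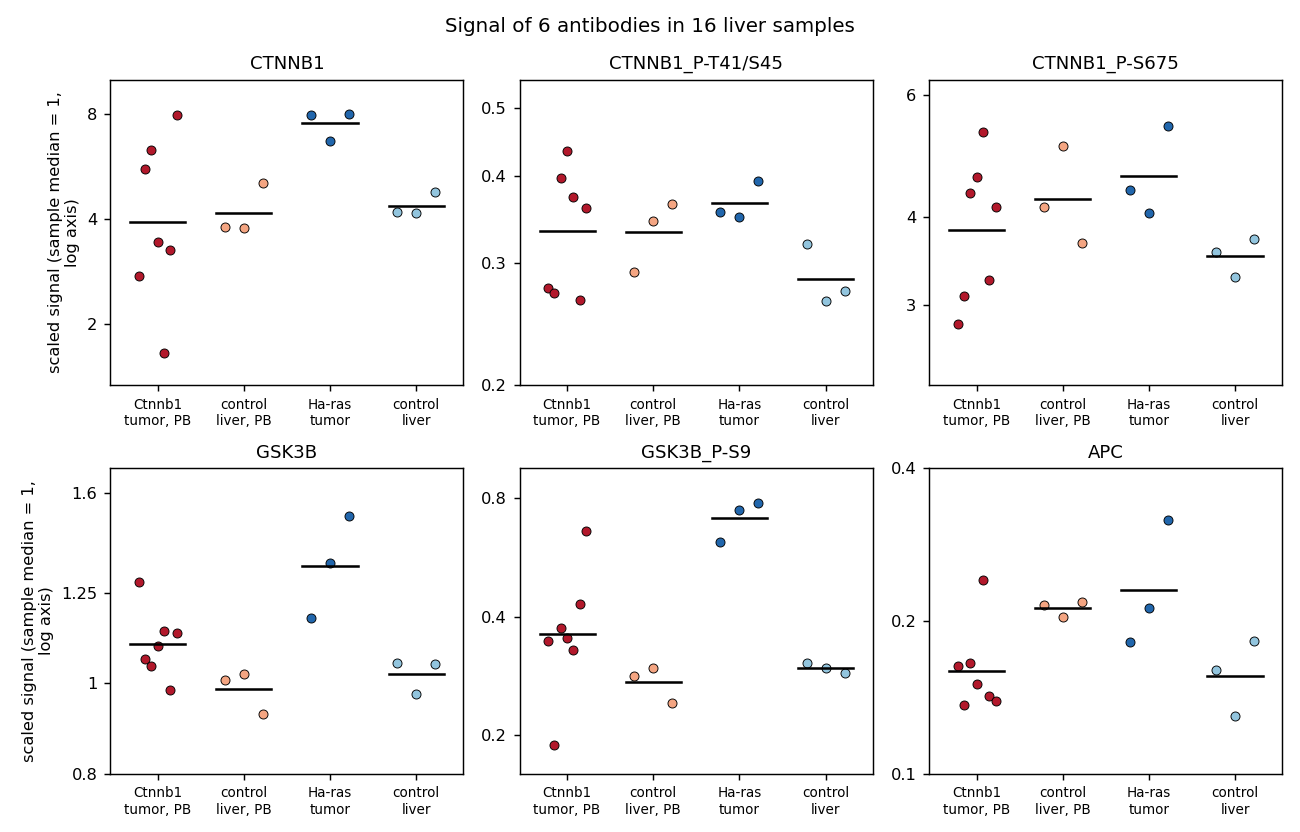
Scaled signal of the 6 antibodies (sample median = 1, log axis) in every sample, by group, with a bar at the geometric mean. The 3 Ha-ras tumors lie above the 3 control livers without PB for every antibody shown except APC, and the Ctnnb1 tumors spread widest for CTNNB1, from 1.65 to 7.94.

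The Ctnnb1 tumors differed from each other more in total beta-catenin than in most proteins on the array. The SD of its log2 signal was 0.783 over the 7 tumors, rank 8 of 157 antibodies from the largest, against a median antibody of 0.213. It was 0.244 in the PB control livers, 0.145 in the Ha-ras tumors and 0.114 in the control livers without PB. Tumor 7 had the highest CTNNB1, 1.91 times the mean of the PB control livers, and tumor 5 the lowest, 0.397 times that mean. The level of total beta-catenin did not sort the tumors by GLUL: tumor 5 had a GLUL of 57.9 with the lowest CTNNB1, and tumor 7 a GLUL of 15.3 with the highest.

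**Figure D3:**
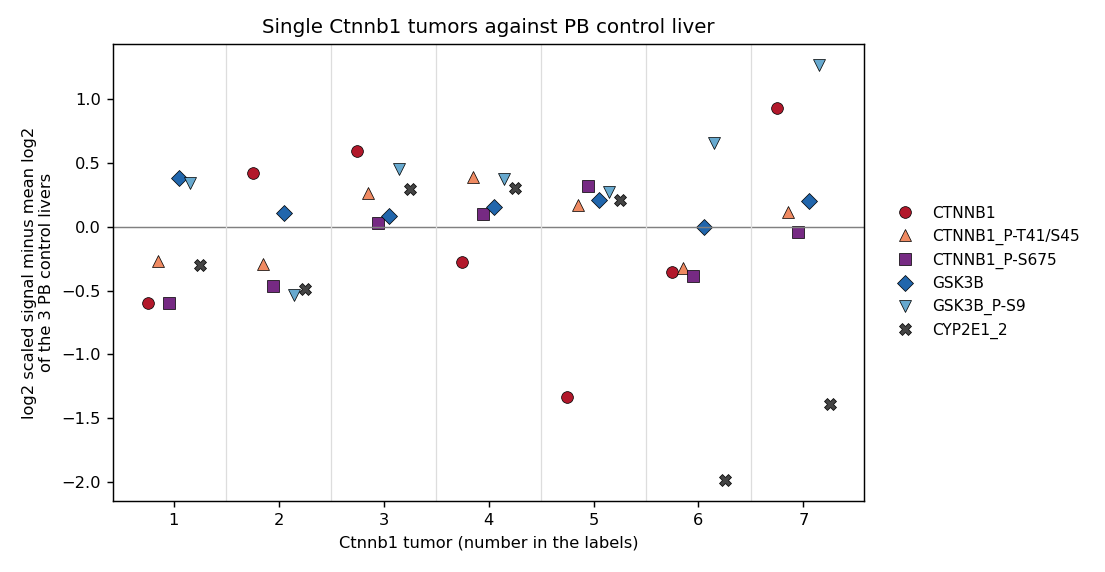
Log2 scaled signal of 5 antibodies and of CYP2E1_2 in each of the 7 Ctnnb1 tumors, relative to the mean log2 signal of the 3 PB control livers (line at 0). CTNNB1 runs from 0.397 times the control mean in tumor 5 to 1.91 times in tumor 7, GSK3B stays close to the line, and tumors 6 and 7 hold the highest GSK3B_P-S9 and the lowest CYP2E1_2.

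The antibody to T41 and S45, the residues that casein kinase 1 and GSK3 phosphorylate on the way to degradation, showed no such spread. CTNNB1_P-T41/S45 ranged from 0.265 to 0.435 with a median of 0.359 in Ctnnb1 tumors, against 0.291, 0.344 and 0.364 in PB control livers. The tumors lay on both sides of these controls, 3 above and 3 below all of them, and the log2 difference was 0.01 ± 0.16 (95% interval -0.33 to 0.34, adjusted p = 0.978), or 0.28 ± 0.23 after blank subtraction (adjusted p = 0.741). In Ha-ras tumors it was 0.355, 0.349 and 0.394, against 0.319, 0.264 and 0.273 in control livers without PB. The groups did not overlap, but the log2 difference of 0.36 ± 0.18 (1.28-fold) did not pass (adjusted p = 0.301), nor did 0.70 ± 0.27 after blank subtraction (1.63-fold, adjusted p = 0.106). Between the tumor genotypes the log2 difference was -0.13 ± 0.16 (Ctnnb1 minus Ha-ras, adjusted p = 0.647), or -0.021 ± 0.23 with the blank subtracted.

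S675, the protein kinase A and PAK site of beta-catenin, had 2.81 to 5.30 with a median of 4.14 in Ctnnb1 tumors, against 4.13, 5.07 and 3.68 in PB control livers. The groups overlapped, with a log2 difference of -0.15 ± 0.18 (95% interval -0.53 to 0.24, adjusted p = 0.622), or -0.023 ± 0.22 after blank subtraction (adjusted p = 0.999). Tumor 5, which had the least total beta-catenin, had the highest CTNNB1_P-S675 of the 7 tumors. In Ha-ras tumors the site read 4.37, 4.06 and 5.41, against 3.57, 3.29 and 3.72 in control livers without PB. All 3 tumors were again above all 3 controls. From the deposited signal the log2 difference was 0.38 ± 0.21 (1.30-fold, adjusted p = 0.351), and after blank subtraction it was 0.80 ± 0.26 (1.74-fold) at an adjusted p of 0.0497, which is just inside the threshold, in a fit that called 17.7% of antibodies. With scaling to the fluorescent reference spots as well, it was 0.82 ± 0.29 (adjusted p = 0.0707). Ctnnb1 minus Ha-ras tumors gave -0.36 ± 0.22 with the blank subtracted (adjusted p = 0.328).

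Relative to total beta-catenin, both sites were lower in every Ha-ras tumor than in any control liver without PB. The ratio of T41/S45 signal to total signal was 0.0448, 0.0522 and 0.0494 in Ha-ras tumors, against 0.0766, 0.0636 and 0.0573 in control livers without PB. The ratio of S675 signal to total signal was 0.552, 0.608 and 0.678 in Ha-ras tumors, against 0.857, 0.792 and 0.781 in those controls. These ratios of 2 antibodies' fluorescence are not the share of molecules phosphorylated. Neither difference passed, at -0.42 ± 0.44 (adjusted p = 0.577) for T41/S45 and -0.41 ± 0.49 (adjusted p = 0.634) for S675, and with the blanks subtracted both pairs of groups overlapped. Of the 45 pairs, 8.89% separated the groups with the tumors lower, and 8.89% passed the test.

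In Ctnnb1 tumors the highest value was 4.98 times the lowest for the T41/S45 ratio and 6.16 times for the S675 ratio, against 4.81 times for total beta-catenin. T41/S45 to total ran from 0.0453 to 0.226 with a median of 0.0815, against 0.0771, 0.0914 and 0.0721 in PB control livers. S675 to total ran from 0.521 to 3.21 with a median of 1.0, against 1.09, 1.35 and 0.728 in PB control livers. Tumor 5 held the highest value of both ratios and tumor 7 the lowest, the reverse of their order in total beta-catenin, with which each ratio shares its denominator. The log2 differences were 0.10 ± 0.37 and -0.06 ± 0.41, and none of the 3 pairs passed in this comparison, in which 2.22% of the 45 pairs did. Between the tumor genotypes (22.2% of the pairs passed) the T41/S45 ratio was higher in 5 of 7 Ctnnb1 tumors than in any Ha-ras tumor, with a log2 difference of 0.81 ± 0.37 (adjusted p = 0.127), and S675 to total differed by 0.68 ± 0.41 (adjusted p = 0.254). T41/S45 to total passed with quantile normalization (1.15, adjusted p = 0.0359) and with array weights (1.01, adjusted p = 0.0435).

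**Figure D4:**
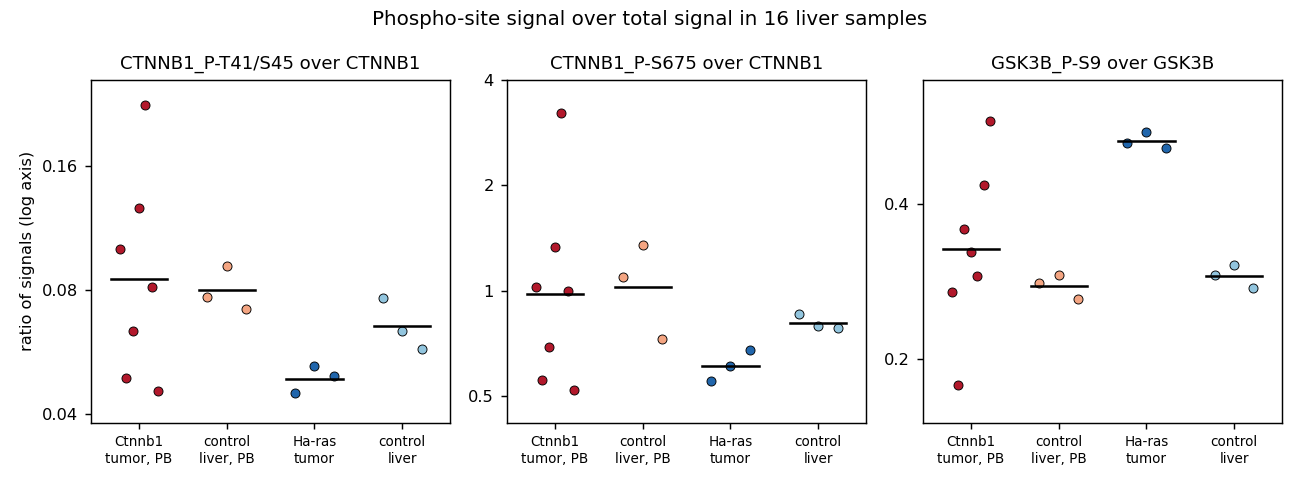
Ratio of phospho-site to total signal (log axis) in every sample, by group, with a bar at the geometric mean. The 3 Ha-ras tumors lie below their controls for both beta-catenin sites and above them for GSK3B_P-S9, and the Ctnnb1 tumors run from 0.0453 to 0.226 for T41/S45.

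GSK3B, the kinase that phosphorylates beta-catenin in the destruction complex, was 1.18, 1.35 and 1.51 in Ha-ras tumors, against 1.05, 0.974 and 1.05 in control livers without PB. The tumors were all higher, and the log2 difference was 0.39 ± 0.11 (1.31-fold, adjusted p = 0.0297). GSK3B and GSK3B_P-S9 were the 2 of 6 antibodies that rose in this comparison, in which 13.9% of all 158 antibodies passed (10.1% higher). The call on total GSK3B held in 5 of 16 alternatives. It was lost when any 1 of the 3 controls, tumor 2 or tumor 3 was left out (adjusted p up to 0.129), in a model of the 2 groups alone (0.128), and with scaling to the fluorescent reference spots (0.0624). In Ctnnb1 tumors GSK3B ran from 0.985 to 1.28 with a median of 1.10, against 1.01, 1.02 and 0.927 in PB control livers. It was above all of those controls in 6 of 7 tumors, and the log2 difference was 0.16 ± 0.10 (adjusted p = 0.399). Its spread over the Ctnnb1 tumors was among the smaller ones on the array, with an SD of 0.121, rank 142 of 157 from the largest.

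Phosphorylation of GSK3B at S9, the inhibitory site, rose in Ha-ras tumors. GSK3B_P-S9 was 0.619, 0.745 and 0.779 in Ha-ras tumors, against 0.305, 0.296 and 0.288 in control livers without PB. The lowest tumor was thus well above the highest control. The log2 difference was 1.26 ± 0.30 (2.40-fold, 95% interval 1.54-fold to 3.72-fold, adjusted p = 0.00965). After blank subtraction it was 1.99 ± 0.51 (3.97-fold, adjusted p = 0.0169). The rise passed in all 15 alternatives that measured it, with adjusted p-values between 0.00161 and 0.0389.

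Since total GSK3B was also higher in Ha-ras tumors, the site was set against it. The ratio of S9 to total signal was 0.526, 0.553 and 0.516 in Ha-ras tumors, against 0.290, 0.304 and 0.275 in control livers without PB. The groups did not overlap, with the tumors higher, as for 31.1% of pairs, and the ratio was 1.83-fold higher (log2 0.88 ± 0.30), but this pair stayed just outside the threshold (adjusted p = 0.0534, with a range of 0.00949 to 0.136 over the alternatives, 4 of 15 of which passed).

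In Ctnnb1 tumors GSK3B_P-S9 varied more than total GSK3B. It ran from 0.189 to 0.659 with a median of 0.353, against 0.283, 0.297 and 0.242 in PB control livers. It was above all 3 controls in 6 of 7 tumors and below them in tumor 2. The 2 highest values were 0.659 in tumor 7 and 0.430 in tumor 6, the tumors without raised GLUL. The log2 difference was 0.40 ± 0.25 (1.32-fold, adjusted p = 0.404). It was 0.96 ± 0.43 after blank subtraction (1.95-fold, unadjusted p = 0.0431, adjusted p = 0.636) and 0.18 ± 0.19 without tumors 6 and 7 (adjusted p = 0.622). None of the 6 antibodies passed in this comparison, in which the limma model called 0% of the 158 antibodies and 25 had an unadjusted p under 0.05. None of the 6 separated the groups.

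Set directly against each other, Ctnnb1 tumors had less GSK3B_P-S9 than Ha-ras tumors. Its log2 difference was -0.97 ± 0.25 (1.97-fold lower, adjusted p = 0.0108), and 6 of 7 Ctnnb1 tumors lay below all 3 Ha-ras tumors, tumor 7 being the exception. It was the 1 of 6 antibodies that passed, in a comparison with 19% of all antibodies called (13.3% lower), and without tumors 6 and 7 it was -1.20 ± 0.19 (adjusted p = 3.9e-04). After blank subtraction it was -1.37 ± 0.43 (adjusted p = 0.0382, with 19% of antibodies called). The call was lost without Ha-ras tumor 3 (-0.91, adjusted p = 0.0567), with blank subtraction and scaling to the reference spots (-1.10, adjusted p = 0.0701) and when replicate numbers entered the model as blocks (-1.29, adjusted p = 0.0882). The block fit compares only tumors that share a number, so its difference rests on Ctnnb1 tumors 1, 2 and 3 and not on tumors 6 and 7. Which way the other antibodies went between the tumor genotypes depended on the scaling, with 9 higher and 21 lower in the main setting, against 19 and 9 without centring and 11 and 10 with scaling to the reference spots. Total GSK3B differed by -0.28 ± 0.10 (adjusted p = 0.0518), and S9 to total by -0.70 ± 0.25 (adjusted p = 0.0549), which became -0.94 ± 0.18 (adjusted p = 0.00253) without tumors 6 and 7. Since those tumors had the highest S9 signals of their group, leaving them out had to widen these differences.

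Whether a tumor effect differed between the genotypes was tested as the difference of the tumor-minus-control differences, Ctnnb1 minus Ha-ras. None of the 6 antibodies and none of the 3 pairs passed, with 5.06% of antibodies (4.43% lower) and 4.44% of pairs called. For GSK3B_P-S9 the difference was -0.86 ± 0.39 (adjusted p = 0.248), and -1.08 ± 0.29 without tumors 6 and 7, which passed (adjusted p = 0.0305). Those tumors had the highest S9 signals of their group, so leaving them out had to widen this difference. That exclusion was the 1 of 25 alternatives in which the difference passed. For CTNNB1 it was -0.87 ± 0.56 (adjusted p = 0.489) and for CTNNB1_P-S675 it was -0.53 ± 0.28 (adjusted p = 0.323). With all 7 Ctnnb1 tumors in the test, the tumor effects on S9 were thus not shown to differ.

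No change of these proteins was detected between control livers of mice with and without PB. Dose and age at the carcinogen injection were not used here, so a difference in them between the arms cannot be told apart from PB. None of the 6 antibodies and none of the 3 pairs passed between PB control livers and control livers without PB, where 1.9% of antibodies and 0% of pairs did (3 and 0, with 14 antibodies at an unadjusted p under 0.05). The log2 differences were -0.07 ± 0.43 for CTNNB1, 0.22 ± 0.18 for CTNNB1_P-T41/S45 and 0.27 ± 0.21 for CTNNB1_P-S675. They were -0.06 ± 0.11 for GSK3B and -0.12 ± 0.30 for GSK3B_P-S9. The 95% interval of the largest of these, CTNNB1_P-S675, was -0.18 to 0.73. After blank subtraction the differences were 0.40 ± 0.27 for CTNNB1_P-T41/S45, 0.46 ± 0.26 for CTNNB1_P-S675 and -0.34 ± 0.51 for GSK3B_P-S9. CTNNB1_P-S675 was then higher in all 3 PB control livers than in any control liver without PB, as were 20.4% of antibodies, and did not pass (1.37-fold, adjusted p = 0.580).

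**Figure D5:**
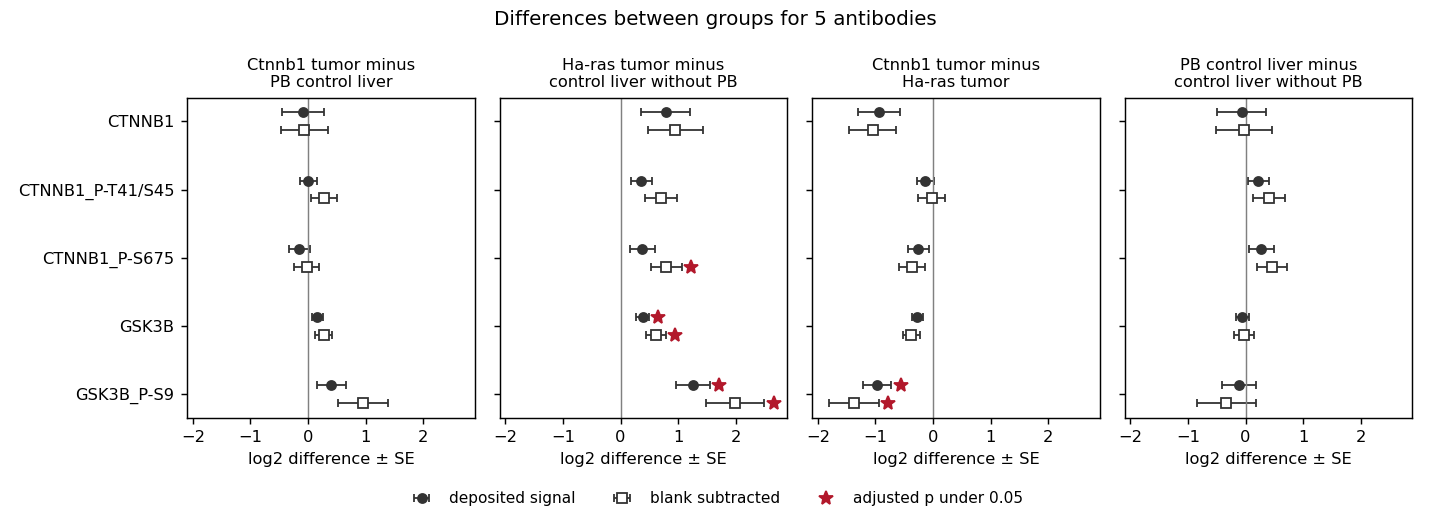
Log2 differences with their SE for 5 antibodies in 4 comparisons, from the deposited signal (filled circles) and after blank subtraction (open squares), with stars at an adjusted p under 0.05. GSK3B_P-S9 carries the largest difference between Ha-ras tumors and control liver without PB, 1.26, or 1.99 after blank subtraction, and no star stands in the comparison of Ctnnb1 tumors with PB control liver.

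APC, the scaffold of the destruction complex, could not be followed with this antibody. Its scaled signal was 0.136 to 0.241 with a median of 0.151 in Ctnnb1 tumors, against 0.215, 0.204 and 0.218 in PB control livers. In Ha-ras tumors it was 0.182, 0.212 and 0.316, against 0.160, 0.130 and 0.183 in control livers without PB. All of these signals lay under 2 times the blank, and the adjusted p-values of the deposited signal were 0.292 and 0.122, the second of which passed without centring (0.0460) and with quantile normalization (0.0421).

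In the rest of the pathway, 3 of the 18 listed Wnt receptors, destruction complex proteins and partners had an antibody. These were casein kinase 1 alpha (CSNK1A1), which primes S45, DVL2, which relays the Wnt signal, and N-cadherin (CDH2), a membrane partner of beta-catenin. None of the 3 passed in any of the 5 comparisons, and CSNK1A1 read under 2 times its blank in all 16 samples. In Ha-ras tumors against control livers without PB their log2 differences were 0.08 ± 0.15, -0.08 ± 0.16 and 0.45 ± 0.27, and in Ctnnb1 tumors against PB control livers -0.06 ± 0.13, -0.18 ± 0.14 and 0.32 ± 0.23.

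Of 9 antibodies to beta-catenin target proteins, 1 rose and 2 fell in Ha-ras tumors, beside 10.1% of all antibodies higher and 13.9% called in either direction. The transcription factor JUN rose by 0.63 ± 0.19 on the log2 scale (adjusted p = 0.0368), and read under 2 times its blank in all 3 controls and 1 of the 3 tumors. Both antibodies to CYP2E1 fell. CYP2E1_1 read 0.380, 0.283 and 0.379 in Ha-ras tumors, against 1.23, 1.33 and 1.37 in control livers without PB. CYP2E1_2 read 3.28, 4.70 and 3.76 in these tumors, against 16.8, 20.9 and 38.2 in those controls, with no overlap for either antibody. The median log2 difference of the 9 was -0.04, against -0.0016 over all antibodies and 0.47 over the 6 antibodies to CTNNB1, APC and GSK3B. That last median counts APC, which read under 2 times its blank in every sample. In Ha-ras tumors total beta-catenin thus lay above, and CYP2E1 below, all control livers without PB. In Ctnnb1 tumors against PB control livers none of the 9 passed, GLUL included (1.53 ± 1.26, adjusted p = 0.470, without tumor 6). Between the tumor genotypes 4 of the 9 were higher in Ctnnb1 tumors (5.7% of all antibodies were), GLUL (7.25 ± 1.26), CYP1A2_1 (3.86 ± 0.63) and both CYP2E1 antibodies (2.39 ± 0.36 and 2.89 ± 0.43), while total beta-catenin was not. The second CYP1A2 antibody, CYP1A2_2, did not pass. It read 1.90 to 3.31 times its blank in Ctnnb1 tumors and 1.90 to 2.97 times in Ha-ras tumors. The size for GLUL is uncertain, since it read under 2 times its blank in 2 of 3 Ha-ras tumors and tumor 6 was left out, and each CYP2E1 antibody did so in 1 Ha-ras tumor. In PB control livers the means of GLUL, CYP1A2_1, CYP2E1_1 and CYP2E1_2 were also 5.16, 3.96, 1.87 and 1.58 times those of control livers without PB. None of the 9 passed there or for the difference of tumor effects (1.9% and 5.06% of all antibodies did). For these 4, genotype and PB arm cannot be told apart in the tumors.

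Of 17 antibodies to kinases and other proteins upstream of S9 and S675, 5 rose in Ha-ras tumors and 12 did not pass, beside 10.1% of all antibodies higher. The ribosomal S6 kinases, which phosphorylate S9 downstream of ERK, rose at RPS6KA1_P-T573 (1.94-fold, adjusted p = 2.2e-04) and RPS6KA3_P-T353/T356 (1.74-fold, adjusted p = 0.0056). A further site, RPS6KA1_P-S380, did not pass (0.54 ± 0.24, adjusted p = 0.204), nor did the totals RPS6KA1 (-0.10 ± 0.22) and RPS6KB1 (-0.14 ± 0.19). RPS6KB1_P-T389 read under 2 times its blank in all 16 samples. PDK1_P-S241 and PAK1_P-S141 rose 1.30-fold and 1.50-fold. For Akt, the best known S9 kinase, no rise was detected. AKT1_P-S473, a site of Akt activation, was 0.377, 0.477 and 0.399 in Ha-ras tumors, against 0.409, 0.505 and 0.508 in control livers without PB, and the log2 difference was -0.18 ± 0.18 (adjusted p = 0.698). The site read under 2 times its blank in 2 of these 3 controls. Total AKT1 and PAK1 differed by 0.07 ± 0.15 and -0.07 ± 0.10. PRKACA_P-T197, on the catalytic subunit of protein kinase A, read under 2 times its blank in all 16 samples and could not be followed. Whether any of these kinases acted on S9 or S675 here was not tested.

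In Ctnnb1 tumors against PB control livers none of the 17 passed, and AKT1_P-S473 differed by -0.36 ± 0.16 (adjusted p = 0.292), lying below all 3 controls in 6 of 7 tumors. Between the tumor genotypes 5 of the 17 were lower in Ctnnb1 tumors, beside 13.3% of all antibodies lower, a share that depended on the scaling as given above. Among them were RPS6KA1_P-T573 (2.14-fold), RPS6KA3_P-T353/T356 (2.08-fold) and PDK1_P-S241 (1.35-fold). The tumor effect itself differed between the genotypes for 3 of the 17, beside 5.06% of all antibodies (4.43% lower). These were RPS6KA1_P-T573 (-0.92 ± 0.17, adjusted p = 0.00694), RPS6KA3_P-T353/T356 (-1.04 ± 0.22, adjusted p = 0.0105) and PDK1_P-S241 (-0.48 ± 0.13, adjusted p = 0.0385).

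The antibodies whose log2 signals moved most like each of the 6 over the 16 samples were found by the root-mean-square difference, each antibody taken relative to its own mean. For GSK3B_P-S9 they were MTOR_P-S2448 (0.299), MAPK8_P-T183/Y185 (0.335) and BAX (0.354), against 0.579 for GSK3B_P-S9 from its own mean and 0.621 for the median antibody. For total CTNNB1 they were MTOR_P-S2448 (0.484), STAT3 (0.489) and IGFBP1 (0.542), against 0.603 for CTNNB1 from its own mean. Total GSK3B came nearest to PDK1_P-S241 (0.145) and EIF2AK3 (0.151), and CTNNB1_P-S675 to EGFR_P-Y1045 (0.165), MTOR (0.169) and EIF2A_P-S51 (0.179). Among the nearest to CTNNB1_P-T41/S45 were BIK (0.184) and ATMIN_P-S/T (0.193), and among the nearest to APC were CDKN1B_P-T187 (0.252) and CREB1 (0.255). Antibodies to the same protein were left out of this search, and the values describe samples that share their scaling.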

How the data were processed

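Each of the 16 deposited sample files holds relative fluorescence, an intensity, in 158 antibody rows, 19 rows of blanks and 6 of an Alexa647 reference, per the file headers. Frozen tissue had been lysed in an 8-fold excess of denaturing buffer, per the labels' protocols. Any other step is not stated in what was used here. The authors' deposited value table holds log2 values that, set against the intensities, are blank-subtracted, Alexa647-scaled and centred on the control livers of each arm. It showed which blank belongs to which antibody (146 of 158 within 0.01 log2 in at least 12 samples, APC in 13) and served as an alternative within arms.

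Groups and replicate numbers came from the sample titles. After taking log2, the median over 155 antibodies with a signal above 0 in every sample was subtracted per sample, and blanks were not subtracted in the main setting. One limma model of 4 group means (R 4.3.3 and limma 3.58.1, with 12 residual and 2.65 prior df) gave the 5 comparisons, with Benjamini-Hochberg adjustment over 158 antibodies or 45 site-to-total pairs and a threshold of 0.05. GLUL was fitted without Ctnnb1 tumor 6, whose signal was not positive. Samples of the same replicate number had correlations of deviations of 0.0951 to 0.225 in the Ctnnb1 arm and 0.00615 to 0.611 in the Ha-ras arm. Between the tumors they were -0.23 to -0.158. With so few samples these values cannot exclude a pairing within an arm, and the labels do not name the animals. Ctnnb1 and Ha-ras tumors came from mice with and without PB, so a shared number there is not a shared animal. No block was used in the main model, and the replicate number as a block was an alternative that changed some calls. A block fit takes its difference only from samples that share a number. These were Ctnnb1 tumors 4 to 6 with the PB control livers, and Ctnnb1 tumors 1 to 3 with the Ha-ras tumors. The model was tested on simulated data in which each antibody had the same spread in all 4 groups. That test does not cover spreads that differ between groups, as that of CTNNB1 did.

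The antibodies named are all those to CTNNB1, APC and GSK3B, for each the 3 of other proteins most alike over the samples, members of 3 pathway lists past the threshold (up to 4 a list and comparison), and AKT1, PAK1 and GLUL. The other Wnt components, PAK1_P-S141 in Ha-ras tumors, PRKACA_P-T197, the other S6 kinase antibodies, CYP1A2, CYP2E1 and HNF4A as tissue markers, and MAPK3_P-T202/Y204 are named beyond this rule. Some antibodies that the rule names are not reported here. The members and lists were chosen with earlier results of these data known. The limit of 2 times the blank, the matching of blanks, blank subtraction combined with Alexa647 scaling, and leaving out Ctnnb1 tumors 6 and 7 were added once values were known, that is, chosen after seeing the data. Blank-subtracted signals were set to at least 0.1 times the blank. Alternatives were no centring, Alexa647 scaling, quantile normalization, blank subtraction, antibodies at 2 times the blank or more in every sample (98), 2 groups only, array weights, the authors' value table, the replicate number as a block, and each sample left out.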

Additional observations from a re-analysis of the deposited data

Results flagged for a closer look

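In the 7 Ctnnb1 tumors 1 APC signal lay far from the others. Tumor 5 had a scaled signal of 0.241, against 0.136 to 0.166 in the other 6, and its gap to the nearest tumor was 0.659 of the whole range on the log2 scale, past Dixon's 95% critical value. Chance gives such a gap in about 1 of 20 groups, and 9 groups of values were looked at. The APC signal of this tumor was 1.38 times its blank, under the limit of 2 times. Tumor 5 also had the lowest total CTNNB1 and the highest CTNNB1_P-S675 of the 7 tumors.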

How the results depend on the processing

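With 6 antibodies and 3 pairs per comparison and up to 26 alternatives, no value that passed the test changed sign. The count of antibodies that passed in Ha-ras tumors against control livers without PB, 2, became 1 with Alexa647 scaling, with blank subtraction and Alexa647 scaling, and in the authors' value table, 3 with quantile normalization or blank subtraction, and ran from 1 to 2 without single samples. With antibodies well above the blank only it was 1, total GSK3B. Of the 6 only CTNNB1 and GSK3B were in that set, so GSK3B_P-S9 was not tested there. The count of pairs there, 0, became 1 with quantile normalization, 2 groups only, array weights and the replicate block, in each case GSK3B_P-S9 to total. Between the tumor genotypes the count of antibodies, 1, became 4 with quantile normalization, 2 with array weights or without tumors 6 and 7, and 0 with blank subtraction and Alexa647 scaling or the replicate block, with 0 to 3 without single samples. With antibodies well above the blank only it stayed 1, but this was total GSK3B (adjusted p = 0.0445) in place of GSK3B_P-S9. The pairs there, 0, became 1 with quantile normalization or without tumors 6 and 7, and 2 with array weights, with 0 to 1 without single samples. For the difference of tumor effects the count of antibodies, 0, became 1 without centring, with quantile normalization or array weights (APC), with the replicate block (CTNNB1) and without tumors 6 and 7 (GSK3B_P-S9), with 0 to 1 without single samples. The block there used only Ctnnb1 tumors 4 to 6, with CTNNB1 at 0.826, 0.397 and 0.782 times the mean of the PB control livers. It left out tumors 1, 2, 3 and 7, at 0.661, 1.34, 1.51 and 1.91 times. Between the genotypes the block used only Ctnnb1 tumors 1 to 3. Over all 158 antibodies, 30 calls between the genotypes became 8 with the replicate block. The 8 calls on the difference of effects became 17 with array weights or without tumors 6 and 7. They became 3 with Alexa647 scaling (blanks subtracted or not) and in the authors' value table. The 3 calls between the control livers became 8 with 2 groups only and 5 without centring or with array weights, and 0 calls in Ctnnb1 tumors became 1 with array weights. Of the 45 pairs, 4 calls in Ha-ras tumors became 8 with quantile normalization, 9 with array weights and 11 with the replicate block and ran from 2 to 5 without single samples, and 10 between the genotypes became 6 with 2 groups only and 1 with the block, and ran from 3 to 11. Higher against lower calls were 14 and 9 between the genotypes with blank subtraction and Alexa647 scaling (9 and 21 in the main setting), 4 and 7 for the difference of effects with quantile normalization and 2 and 5 with blank subtraction (1 and 7), and 20 and 4 for Ha-ras tumors in the authors' value table (16 and 6).

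Signs turned for differences that had not passed. In Ctnnb1 tumors against PB control livers, CTNNB1 was 0.011 without centring, 0.12 with Alexa647 scaling, 0.12 with blank subtraction as well, and 0.11 in the authors' value table. CTNNB1_P-S675 was 0.058, 0.17 and 0.15 under the last 3 of these and 0.0098 with the replicate block. S675 to total was 0.058 with quantile normalization, 0.044 with blank subtraction, with or without Alexa647 scaling, and in the authors' value table, 0.66 with the block and 0.12 without tumors 6 and 7, and S9 to total was -0.0055 without those tumors. APC, under 2 times its blank, was 1.33 in the authors' value table and 0.76 there for the difference of effects. Between PB control livers and control livers without PB, CTNNB1, GSK3B and GSK3B_P-S9 were 0.14, 0.16 and 0.093 without centring and 0.087, 0.099 and 0.036 with Alexa647 scaling, and CTNNB1 and GSK3B 0.070 and 0.064 with blank subtraction as well. Between the tumor genotypes CTNNB1_P-T41/S45 was 0.14 without centring, 0.057 with Alexa647 scaling and 0.24 with blank subtraction as well, and CTNNB1_P-S675 0.012 without centring. The median of all antibodies itself moved by 0.27 and 0.21 without centring between the genotypes and between the controls, and with Alexa647 scaling by 0.19 and 0.15 there, by 0.21 in Ctnnb1 tumors and by 0.17 in Ha-ras tumors. Without single samples the ranges that crossed 0 were -0.26 to 0.12 for CTNNB1, -0.086 to 0.076 for CTNNB1_P-T41/S45, -0.35 to 0.14 for S675 to total and -0.14 to 0.25 for T41/S45 to total in Ctnnb1 tumors, and -0.21 to 0.0050 for CTNNB1 between the controls. With the replicate number as a block, CTNNB1 in Ha-ras tumors passed (0.78, adjusted p = 0.0367), GSK3B did not (0.39, adjusted p = 0.0501), and GSK3B_P-S9 between the genotypes did not (-1.29, adjusted p = 0.0882). The block values of Ctnnb1 tumors rest on tumors 4 to 6 against PB control livers and on tumors 1 to 3 against Ha-ras tumors. No paired analysis was possible because the groups share no replicate number between PB control livers and control livers without PB. The cause of these shifts was not tested.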
